A study of Mus musculus with 3 samples.

Results

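Homeobox genes outside the Hox clusters were examined in mouse ES cells in which the nuclear pore protein NUP153 had been depleted. The genes were chosen by symbol alone, as the members of 13 families (Dlx, the family of Six4, Lhx, Irx, Pitx, Msx, Meis, Pbx, Nkx, Meox, Emx, Gbx and En), and 61 of the 24421 genes with deposited read counts belong to them. RNA-Seq had been performed on undifferentiated cells of the female EL 16.7 line (strain F2:129S1/CastEiJx 129S1), an ES cell line kept with serum and LIF. The control library came from cells transduced with a scramble shRNA lentivirus, the NUP153 KD-1 library from cells with the virus labelled shRNA-1, and the NUP153 KD-2 library from cells with the virus labelled shRNA-2. All cells were grown on γ-irradiated mouse embryonic fibroblasts of Tg(DR4)1Jae/J mice and were selected with puromycin before collection. The libraries hold the RNA of the whole culture, and fewer cells of a type and less RNA per cell cannot be told apart in them.

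Homeobox genes encode transcription factors with a homeodomain, a compact DNA-binding fold of helices that contacts AT-rich sites. Most of the families studied here pattern the embryo, such as Dlx and Lhx genes in the forebrain, Irx and Nkx genes in the neural tube and heart, and Meox genes in the somites. In ES cells many of their promoters are CpG-rich and bivalent, which means that they carry an activating and a repressive histone mark together and are transcribed little. Pbx and Meis proteins, of the TALE class, are broadly expressed partners of Hox and other homeodomain proteins.

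Each condition has 1 library, so that no difference between conditions has a replicate check, and no p-value is given for a comparison of single libraries. Reads on genes numbered between 69839336 in KD-2 and 85258834 in KD-1. Libraries were scaled by upper-quartile normalization. A gene was counted as higher or lower when its fold change was above 1.5 and the 95% interval of the ratio of its reads left out no difference. These intervals are exact, and they cover the counting of reads only. The rule was applied to 16670 genes, those that averaged 10 reads or more per library. Where 3 values of a gene or list follow each other, they are those of control, KD-1 and KD-2, in this order. The targeted gene, Nup153, had 27870, 16451 and 11126 reads, which is a log2 fold change of -0.99 for KD-1 and of -1.43 for KD-2. Of the 10 ES cell markers examined, 9 lay between 14.8 RPKM (Tfcp2l1) and 1670 RPKM (Dppa5a) in control, and Utf1 was at 1.43 RPKM. RPKM are reads per kilobase of exon, scaled to the reads on all genes of the library.

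The promoters of 4 of these genes are given to show their CpG content. Nkx3-2 and Irx3 are shown because they were among the genes that differed most between the knockdown libraries, Meox2 because it was lower in one knockdown and higher in the other, and Pbx2 because it had the highest level of the group in control. Each sequence runs 5′ to 3′ from 250 bases before the first listed start of the gene to 50 bases after it (RefSeq, GRCm38.p6), and the capitals mark the CpG dinucleotides.
Nkx3-2, minus strand, chr5:41764171-41764470: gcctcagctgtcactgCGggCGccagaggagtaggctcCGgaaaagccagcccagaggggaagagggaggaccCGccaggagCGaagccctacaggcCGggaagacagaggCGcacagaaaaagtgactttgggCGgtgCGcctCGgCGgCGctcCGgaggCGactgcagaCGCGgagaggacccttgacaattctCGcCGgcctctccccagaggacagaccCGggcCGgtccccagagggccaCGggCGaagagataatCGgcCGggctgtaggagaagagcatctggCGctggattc
Irx3, minus strand, chr8:91801605-91801904: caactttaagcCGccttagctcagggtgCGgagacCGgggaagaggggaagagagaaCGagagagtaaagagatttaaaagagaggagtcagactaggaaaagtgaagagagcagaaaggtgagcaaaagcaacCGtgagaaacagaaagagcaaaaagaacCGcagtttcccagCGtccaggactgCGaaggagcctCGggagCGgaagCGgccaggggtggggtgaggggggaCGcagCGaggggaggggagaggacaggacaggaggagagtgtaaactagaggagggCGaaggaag
Meox2, plus strand, chr12:37108290-37108589: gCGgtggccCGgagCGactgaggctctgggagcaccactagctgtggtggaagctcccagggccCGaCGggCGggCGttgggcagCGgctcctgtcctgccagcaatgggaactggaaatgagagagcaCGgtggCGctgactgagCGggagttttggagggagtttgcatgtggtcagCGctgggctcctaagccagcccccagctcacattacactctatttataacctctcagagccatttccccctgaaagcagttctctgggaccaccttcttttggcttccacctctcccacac
Pbx2, plus strand, chr17:34592009-34592308: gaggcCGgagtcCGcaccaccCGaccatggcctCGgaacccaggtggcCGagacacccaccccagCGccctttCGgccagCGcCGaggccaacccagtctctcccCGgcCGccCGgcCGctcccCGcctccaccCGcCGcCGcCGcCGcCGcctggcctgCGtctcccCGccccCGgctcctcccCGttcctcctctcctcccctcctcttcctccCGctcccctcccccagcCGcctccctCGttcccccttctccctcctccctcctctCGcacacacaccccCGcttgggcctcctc

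The Nkx3-2 promoter holds 25 CpG dinucleotides, the Irx3 promoter 14, the Meox2 promoter 12 and the Pbx2 promoter 29. Promoters of 42 of the 61 homeobox genes were matched by symbol, and their median was 21 CpG dinucleotides (range 4 to 40), compared to a median of 7 over 27025 promoters of the same length. Among the matched genes that were higher in KD-2, 18 promoters had a median of 25 CpG dinucleotides, and the 10 promoters of the other genes tested had a median of 18. The letters TAATTA, a core that many homeodomains bind, read the same on both strands. They were found in 2 of the 42 promoters (4.76%) and in 5.31% of all promoters. The letters CCAAT, searched on both strands, were found in 47.6% of the 42 promoters and in 37.9% of all promoters. TATAAA, also on both strands, was found in 4 of the 42 promoters (9.52%, Meox2 among them) and in 14.2% of all promoters.

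Expression of the group was low in control cells. In control, 8 of the 61 genes were above 1 RPKM, as were 10239 of the 23376 genes with an annotated exon length. The group held 9294, 11670 and 12829 reads, or 128, 137 and 184 RPM when scaled to the reads on all genes of each library. Pbx2 was at 4.68, 5.48 and 6.59 RPKM. Six4, a factor of muscle and sensory organ precursors, followed at 2.39 RPKM in control and KD-1 and 2.21 in KD-2. Gbx2, which positions the midbrain-hindbrain boundary and is also known as a target of LIF signaling in ES cells, was at 1.59, 1.72 and 2.92 RPKM. Among the levels below these in control were Pbx3 at 1.40 RPKM, Irx2 at 1.07, En2 at 0.719 and Meox2 at 0.668. The order of these levels rests on 1 library and on annotated exon lengths, so that neighbours such as Gbx2 and Pbx3 were not separated by any measured spread. In KD-2, 12 genes of the group were above 1 RPKM, and in KD-1 there were 8.

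**Figure D1:**
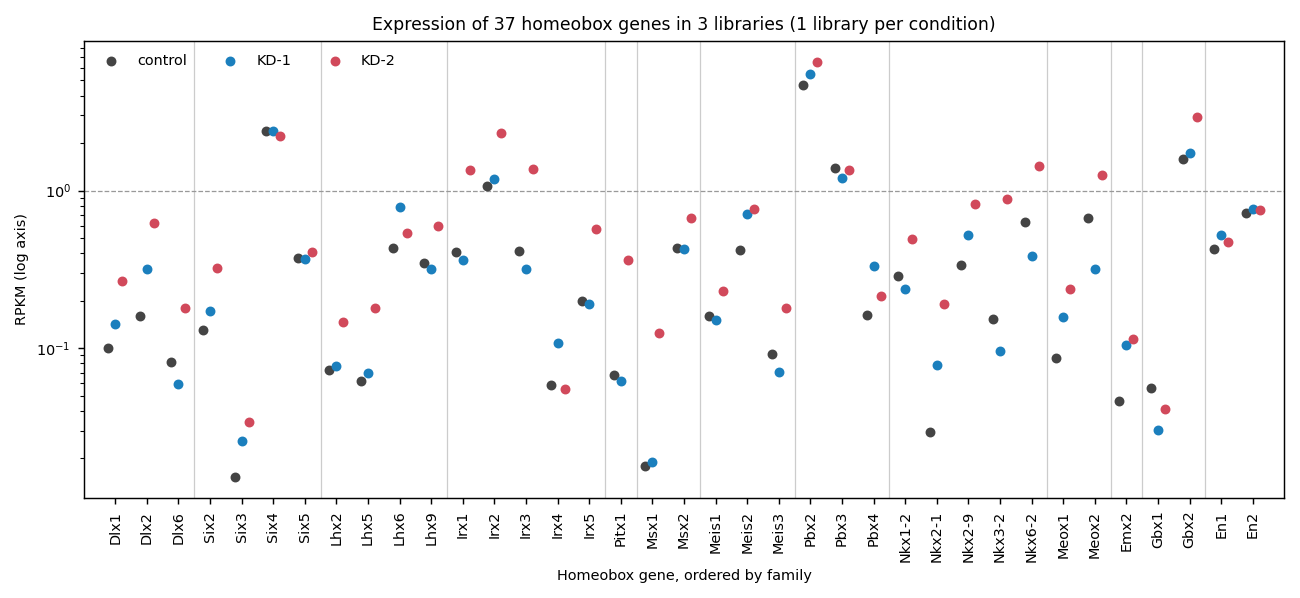
RPKM (log axis) of 37 of the tested homeobox genes, ordered by family, with 1 point for each library and a dashed line at 1 RPKM. Most points lie below the line, Pbx2 is the highest gene in each library, and the KD-2 points of Irx1, Irx3, Nkx6-2 and Meox2 lie above the line while their control points lie below it.

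Of the 61 genes, 41 reached a mean of 10 reads and 20 did not. A gene can reach that mean through the library where it is high, and 3 of the 41 (Msx1, Nkx2-1 and Six3) had fewer than 10 reads in control. The 20 genes below the mean held 45, 78 and 88 reads in all. Nkx6-3 had the most among them in control with 7 reads, and Nkx2-6 had 0 reads in every library. Lhx1, a head organizer and kidney gene that the study lists as upregulated in NUP153-deficient cells, had 0, 7 and 0 reads. Nkx1-1 had 0, 3 and 9 reads, and Nkx2-5, a cardiac factor, had 0, 3 and 6 reads. A count of 0 allows up to 3 reads in a library, so that these differences lie close to what the depth can show.

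In NUP153 KD-2 compared to control, 24 of the 41 genes were past the limits upwards and 0 were lower. Over all genes tested, 14.9% were higher and 8.6% were lower. With a fold limit of 2, 15 genes were higher (5.01% of all genes). With a likelihood ratio test at a fixed dispersion of 0.04, which allows for a spread between replicates, 2 were (0.348% of all genes). The share of higher genes depends on the level of a gene. Among the 8789 genes with a mean below 1000 reads, which hold 38 of the 41 genes, 20.8% were higher in KD-2. This comparison by level was added after the values were seen. The median log2 fold change in KD-2 was 0.76 over the 41 genes and -0.02 over all genes tested. At least 1 gene was higher in 11 of the 13 families. The exceptions were Pbx and En, with 0 of 4 and 0 of 2 genes. The Msx family counts through Msx1 alone, which had 4, 5 and 27 reads and reached the minimum mean only through KD-2. Msx1 and Nkx2-1, both among the 24 genes, are 2 of the genes named above for their few reads in control.

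In NUP153 KD-1 compared to control, 6 of the 41 genes were past the limits upwards and 2 downwards. The shares over all genes tested were 6.48% upwards and 4.58% downwards, and 11.2% and 5.98% among genes with a mean below 1000 reads. At the fixed dispersion of 0.04, 0 and 0 of the 41 genes were called, and 0.306% and 0.168% of all genes. The median log2 fold change was 0.10 over the 41 genes and 0.02 over all genes tested. Both comparisons use the same control library. The knockdown libraries were also compared directly, without the control library. From KD-1 to KD-2, 20 of the 41 genes were past the limits upwards and 3 downwards (Irx4, Lhx6 and Pbx4), next to 15.0% and 12.0% of all genes tested. Among genes with a mean below 1000 reads the shares were 18.7% and 14.5%. The calls of Irx4 and Lhx6 were lost under some of the other scalings. At the fixed dispersion of 0.04 the numbers were 7 and 0, next to 3.67% and 0.468% of all genes.

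**Figure D2:**
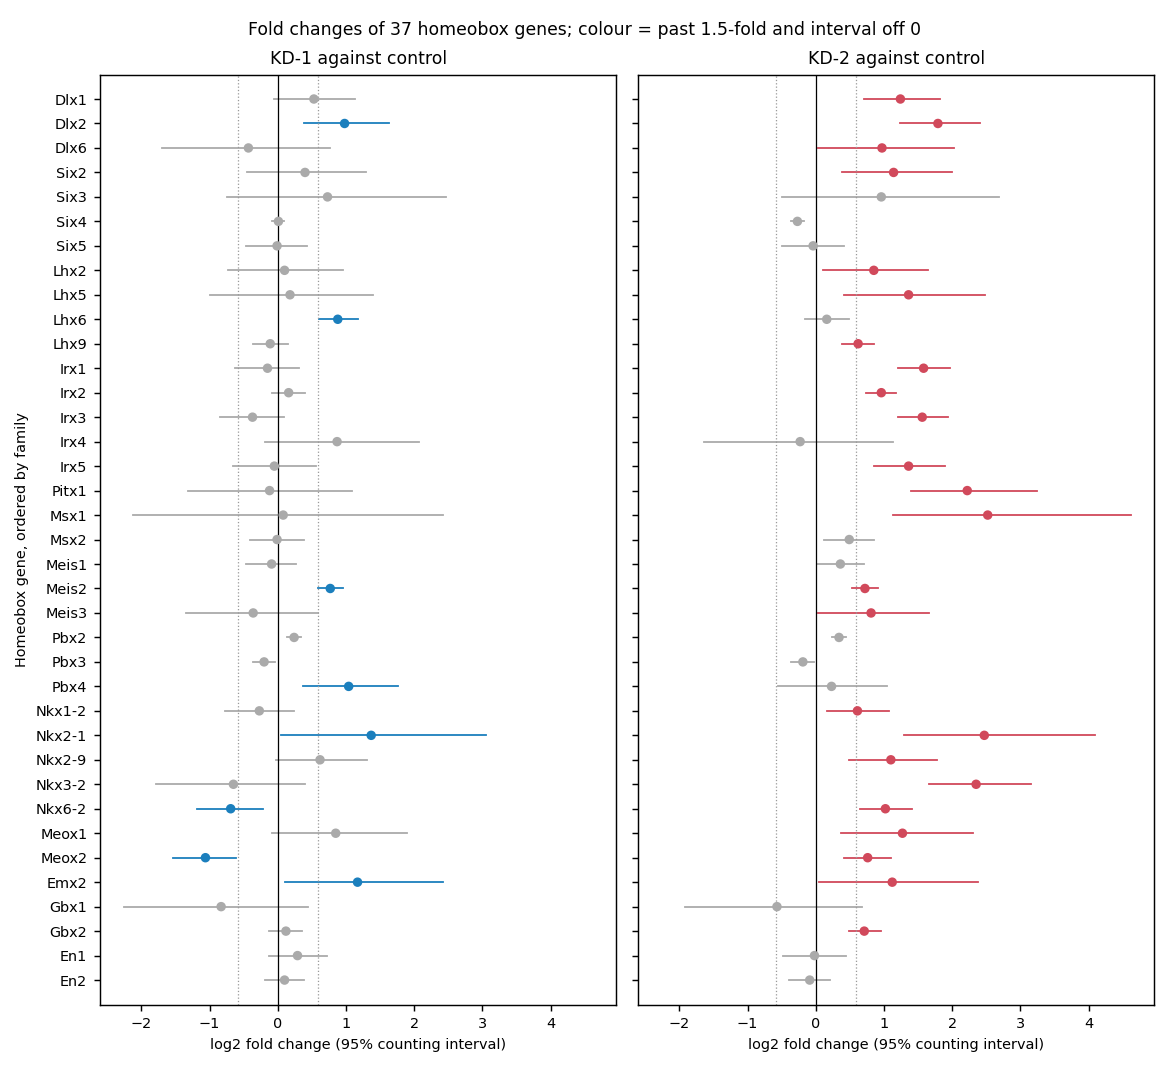
Log2 fold changes of 37 of the tested homeobox genes in KD-1 (left) and KD-2 (right) against the same control library, with bars for the exact 95% counting interval and dotted lines at a fold change of 1.5. Colour marks the genes past both limits, 8 on the left and 24 on the right, and the 2 coloured points left of 0 are Nkx6-2 and Meox2 in KD-1.

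When the knockdown libraries were taken as replicates of each other, the quasi-likelihood test of edgeR called 0 of the 41 genes at an FDR under 0.05, and 1 of 16670 genes (0.006%). This test has 1 residual degree of freedom, and its spread is that between the knockdown libraries. An unadjusted p-value under 0.05 was found for 5 of the 41 genes and for 224 of all genes. The 5 genes were Nkx2-1, Dlx2, Nkx3-2, Pitx1 and Msx1, with fitted log2 fold changes between 1.47 (Dlx2) and 2.1 (Nkx2-1), and the FDR was 1 for each of them. Nkx2-1 and Msx1 were tested only because of their reads in the knockdown libraries, so their p-values are not independent of that filter. With DESeq2's size factors in the same test, 1 of the 41 genes (Nkx2-1) and 123 of all genes had such a p-value. DESeq2's Wald test called 0 of the 41 genes, with 0 at an unadjusted p-value under 0.05, and it called 2 of all genes, with 78 at such a p-value.

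Markers of embryonic fibroblasts, the feeder cells of the culture, moved with the libraries. Of 12 markers, 7 were past the limits downwards in KD-1 and 0 upwards, whereas 11 were past them upwards in KD-2 and 0 downwards. Their summed level was 157, 72.0 and 320 RPKM, and no marker was at 0. Col3a1 was at 76.9, 30.5 and 166 RPKM, and Prrx1, itself a mesenchymal homeobox gene, was at 4.83, 2.63 and 9.14 RPKM. Of the 24 homeobox genes that were higher in KD-2, 11 had a log2 fold change below 0 in KD-1 and 13 had one above 0. Over all 16670 genes tested, 7817 were below 0 in KD-1 and 8853 above 0. Among the 11 were Meox2, Nkx6-2, Nkx3-2, Pitx1, Irx1, Irx3 and Irx5, and among the 13 were Dlx2, Nkx2-1, Emx2, Meis2 and Gbx2. Of the 11, only Meox2 and Nkx6-2 were past the limits in KD-1. Of the 13, only Dlx2, Emx2, Meis2 and Nkx2-1 were. The part of the feeder cells in these values was not tested. Markers of other lineages were examined as well. Of the neural markers, Olig2 had 0 reads in every library, while Tubb3 was at 87.4, 91.0 and 77.8 RPKM and Pax6 had 273, 403 and 232 reads, and of 4 tested neural markers 1 was higher in KD-1 and 0 were in KD-2. Of 4 tested mesendoderm markers, 2 were higher in KD-2 and 1 in KD-1. Of 4 tested endoderm markers, 1 was higher in KD-2 (Gata6, at 1.08) and 0 in KD-1, and Gata4 and Sox7 were at -0.24 and -0.20 in KD-2. Of 3 tested trophoblast markers, 1 was higher in each knockdown (Cdx2, at 1.75 and 1.82), and Tfap2c, which had the most reads of them, was at -0.36 and -0.43. Of the 10 ES cell markers, Zfp42 and Tdgf1 were lower in KD-2, at -0.70 and -0.61, and Utf1 was higher in both knockdowns.

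**Figure D3:**
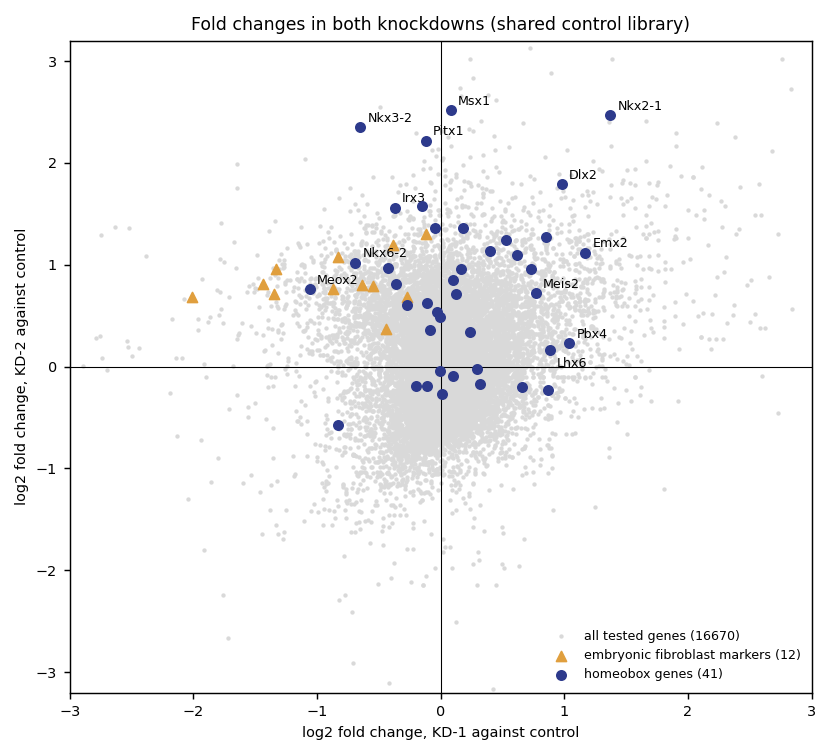
Log2 fold change in KD-2 against that in KD-1 for all 16670 tested genes (grey), 12 embryonic fibroblast markers (triangles) and 41 homeobox genes (dots), where both axes share the control library. All triangles lie left of 0 and above 0, and 31 of the 41 dots lie above 0, on both sides, with Nkx6-2 and Meox2 among the triangles and Dlx2, Nkx2-1, Emx2 and Meis2 to the right (16 genes lie outside of the axes).

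The Irx genes, which encode TALE-class patterning factors of heart, limb and neural tube, lie in a pair of clusters, and 4 of them (Irx1, Irx2, Irx3 and Irx5) were highest in KD-2. In the chromosome 8 cluster (GRCm38), Irx3 had 83, 75 and 264 reads. Its log2 fold change was 1.56 for KD-2 (interval 1.20 to 1.94) and -0.37 for KD-1 (-0.84 to 0.09). Irx5, 556 kb away, had 45, 51 and 125 reads, and its log2 fold change in KD-2 was 1.36 (0.86 to 1.89). Irx6, the last gene of that cluster, had 3, 1 and 3 reads. In the chromosome 13 cluster, Irx1 had 77, 81 and 249 reads, at 1.58 in KD-2 (1.21 to 1.97). Irx2 had 254, 333 and 532 reads, at 0.96 (0.74 to 1.18). Irx4, the third gene of the cluster and known from the ventricles of the heart, had its most reads in KD-1. Its counts were 11, 24 and 10, and its log2 fold change from KD-1 to KD-2 was -1.10 (-2.37 to -0.02). In KD-1, the intervals of all 5 tested Irx genes included no difference from control.

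The Dlx genes lie in neighbouring pairs and are known for forebrain interneurons and the branchial arches. Dlx2, on chromosome 2, had 33, 77 and 124 reads. It was at 0.98 for KD-1 (0.39 to 1.63) and 1.79 in KD-2 (1.24 to 2.40), so that both knockdown libraries were above control. Dlx1, 9.43 kb away, had 39, 66 and 100 reads, with 0.53 in KD-1 (-0.06 to 1.14) and 1.24 in KD-2 (0.70 to 1.82). The exons of Dlx1 share 335 bases with the opposite-strand gene Dlx1as, which had 53, 20 and 77 reads and was lower in KD-1, at -1.61, and which strand was counted is not stated. Dlx6 had 14, 12 and 30 reads and was higher in KD-2, at 0.97 (0.03 to 2.02), and the opposite-strand gene Dlx6os2 that shares exon bases with it had 0 reads in every library. Dlx6os1, whose annotated span on the opposite strand holds Dlx6, had 15, 10 and 34 reads and was higher in KD-2 as well, at 1.05. Its pair gene Dlx5 had 4, 3 and 11 reads, and Dlx3 and Dlx4 had at most 11 reads in any library.

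The Nkx genes form the largest family, with 14 members, of which 6 were tested and 5 were higher in KD-2. Nkx3-2, a cartilage and axial skeleton factor, had 19, 14 and 106 reads. Its log2 fold change was 2.35 in KD-2 (1.66 to 3.16) and -0.65 in KD-1 (-1.78 to 0.40), and from KD-1 to KD-2 it was 2.99 (2.23 to 3.96). Nkx2-1, which specifies thyroid, lung and ventral forebrain, was above control in both knockdown libraries. It had 6, 19 and 38 reads, at 1.37 for KD-1 (0.05 to 3.05) and 2.47 for KD-2 (1.30 to 4.09), and it was not counted as higher in KD-1 with DESeq2's size factors, at 1.30. Nkx2-9, a ventral neural tube gene 74.5 kb from Nkx2-1 on chromosome 12, had 31, 56 and 72 reads and was at 1.10 in KD-2 (0.48 to 1.77). Nkx6-2, a gene of ventral spinal cord and oligodendrocytes, moved in opposite directions. It had 87, 63 and 191 reads, and its log2 fold change was -0.69 for KD-1 (-1.19 to -0.21) and 1.02 for KD-2 (0.65 to 1.41). Its exons share 246 bases with Inpp5a on the opposite strand, which was at 0.35 in both knockdowns. Nkx1-2 was at 0.61 in KD-2 (0.17 to 1.07), just past the fold limit.

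**Figure D4:**
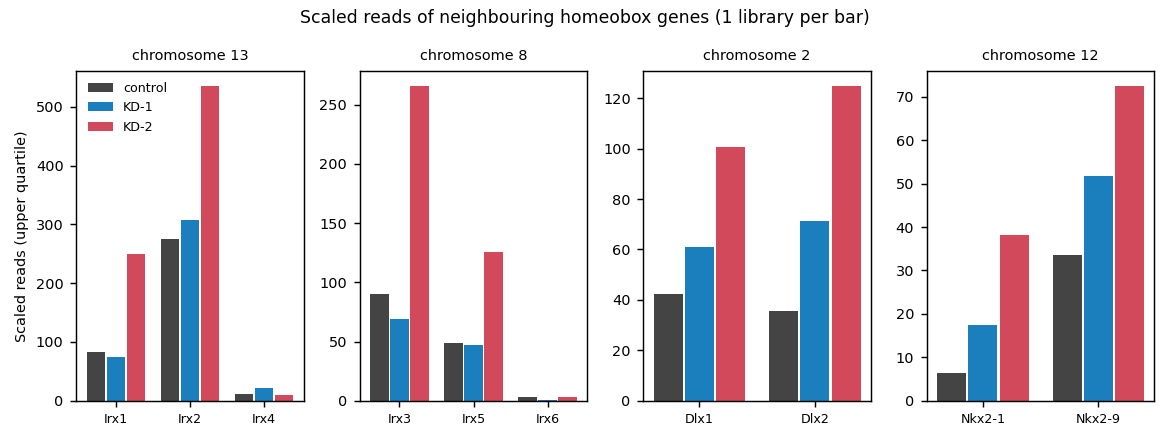
Upper-quartile scaled reads (linear axis from 0) of neighbouring homeobox genes in 4 genomic groups, with 1 bar for each library. In both Irx groups KD-2 is the tallest bar for Irx1, Irx2, Irx3 and Irx5, and in the Dlx and Nkx groups it is the tallest for all 4 genes.

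Meox1 and Meox2 encode somite factors, and both were higher in KD-2. Meox2, on chromosome 12 from 37108540 to 37179534, had 114, 64 and 208 reads. It was lower in KD-1, at a log2 fold change of -1.06 (-1.53 to -0.61), and higher in KD-2, at 0.76 (0.42 to 1.10). The study, which used another test, lists Meox2 as downregulated in NUP153-deficient cells, which is the direction of KD-1 and not of KD-2. From KD-1 to KD-2 it was at 1.81 (1.41 to 2.25). Meox1 had 14, 30 and 37 reads and was at 0.85 in KD-1 (-0.09 to 1.90) and 1.27 in KD-2 (0.37 to 2.30).

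Pitx1, the hindlimb determinant, was high in KD-2 alone, with 13, 14 and 67 reads. Its log2 fold change in KD-2 was 2.22 (1.39 to 3.24), and in KD-1 it was -0.12 (-1.32 to 1.09). Msx1, a BMP-responsive gene of craniofacial mesenchyme, had 4, 5 and 27 reads, at 2.52 in KD-2 (1.13 to 4.62). Msx2 had 102, 119 and 154 reads and was at 0.49 in KD-2 (0.12 to 0.86), under the fold limit. With library totals it was counted as higher in KD-2, both than in control and than in KD-1.

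The Lhx genes encode LIM homeodomain factors. Of the 4 tested, Lhx6 had its highest level in KD-1 and the others had theirs in KD-2. Lhx6, a factor of cortical interneurons, had 150, 324 and 180 reads, at 0.88 for KD-1 (0.60 to 1.17) and 0.16 for KD-2 (-0.16 to 0.48). It was lower in KD-2 than in KD-1, at -0.72 (-1.0 to -0.46), and with library totals that value was -0.56 and under the fold limit. The other tested Lhx genes were higher in KD-2. Lhx5, of the forebrain, had 12, 16 and 34 reads (1.36 in KD-2), Lhx2, of the eye and cortex, had 23, 29 and 45 reads (0.85), and Lhx9, of the gonad and limb, had 238, 258 and 393 reads (0.62).

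The Pbx and Meis genes are the TALE partners named above. Meis2 was above control in both knockdown libraries. It had 363, 726 and 645 reads, at 0.77 for KD-1 (0.59 to 0.96) and 0.72 for KD-2 (0.53 to 0.91). Meis3 had 21, 19 and 40 reads and was at 0.81 in KD-2 (0.03 to 1.66), while Meis1 was at 0.36. Pbx2 was at 0.24 and 0.34 in the knockdowns, and Pbx3 at -0.20 and -0.19. Pbx4, with few reads, was higher in KD-1, where it had 63 reads compared to 26 in control and 33 in KD-2, at 1.04 (0.37 to 1.77).

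Emx2, a gene of cortex and urogenital tract, was above control in both knockdown libraries, with 10, 27 and 24 reads. It was at 1.17 in KD-1 (0.11 to 2.42) and 1.12 in KD-2 (0.04 to 2.38), and the lower bounds lie close to no difference. Its exons share 264 bases with Emx2os on the opposite strand, which was at 0.29 and 0.18. Gbx2 had 251, 319 and 444 reads and was at 0.71 in KD-2 (0.49 to 0.95), and Gbx1 had at most 14 reads in any library. Six2, a factor of nephron progenitors, had 20, 31 and 48 reads and was at 1.14 in KD-2 (0.38 to 1.99). Six4 had 1880, 2211 and 1674 reads and was counted in neither knockdown, at 0.01 for KD-1 and -0.27 for KD-2 (-0.37 to -0.18). En1 and En2, of the midbrain-hindbrain boundary, lay between -0.09 and 0.29 in both knockdowns.

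Genes whose products act with these factors were also examined, together with related homeobox genes outside the 13 families (Pknox, Tgif, Isl and Lmx1 genes). All 26 are called partner genes here, and 23 of them were tested. In KD-1, 3 of the 23 (13.0%) were past the limits upwards and 2 (8.7%) downwards, next to 6.48% and 4.58% of all genes tested. In KD-2 the numbers were 7 (30.4%) and 0, next to 14.9% and 8.6%. The medians of the log2 fold change were 0.09 for KD-1 and 0.43 for KD-2. Among the cofactors of Six4 and its relatives, Eya4 moved in opposite directions, as Meox2 did, with 318, 230 and 536 reads, at -0.69 and 0.65. Dach1 was higher in KD-2, at 0.88. Among the LIM-only genes, whose products compete for the LIM cofactor Ldb1, Lmo2 was at 0.62 for KD-1 (0.55 and under the fold limit with DESeq2's size factors) and 0.70 for KD-2, and Lmo4 was at 0.83 in KD-2. Ldb1 itself had 3124, 3947 and 3356 reads and was at 0.11 in KD-1. Of the Groucho corepressors, Tle2 was higher in KD-2, with 27, 25 and 101 reads and a log2 fold change of 1.78, and the other 5 were not counted in either knockdown. Among TALE relatives, Pknox1 was lower in KD-1, at -0.61, and Pknox2 was at 0.71 and 0.65. The LIM homeodomain genes Lmx1a and Lmx1b differed in the library that was high. Lmx1a had 29, 111 and 43 reads and was at 1.69 in KD-1, and Lmx1b had 12, 18 and 42 reads and was at 1.66 in KD-2.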

How the data were processed

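Per the methods and the submitters' processing notes, the authors trimmed 50 bp single-end reads of rRNA-depleted total RNA with Trim Galore 0.4.1 and mapped them with TopHat 2.1.1 to mm10. What they deposited are raw counts of reads on each gene. The methods name featureCounts and the notes name HTSeq. The strand that was counted is not given in the sources used here. Summary lines were left out. They held 21.5% to 24.1% of the reads outside of genes, and 1.45% to 1.65% as ambiguous. Fold changes were computed from upper-quartile scaled reads with a pseudocount of 0.5 reads, and intervals of the ratio of reads with the exact conditional (Clopper-Pearson) method at 95%. The study's dispersion, fixed from spike-ins, was not used here, and likelihood ratio tests at fixed dispersions were run as alternatives. Both knockdowns were compared to control with edgeR 4.0.16 (quasi-likelihood test, TMM, Benjamini-Hochberg) and DESeq2 1.42.0 in R 4.3.3. Exon lengths and overlaps came from GENCODE M21 (GRCm38), which matched all 61 genes by symbol. Named genes were those counted in either knockdown, the 10 with the highest RPKM in control, genes the study names, called partner genes, and genes overlapping these. Others were named after their values were seen. Some genes that this rule names are not reported here, and the plots by gene leave them out. The genes and lists were chosen with earlier results of these data known. Methods were tested on simulated data. Other steps ran in Python 3.11.15 with numpy 2.4.6, pandas 2.3.3, scipy 1.17.1 and, for plots, matplotlib 3.10.9.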

Additional observations from a re-analysis of the deposited data

Results flagged for a closer look

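Meox2 and Nkx6-2 were below the shared control library in KD-1 and above it in KD-2. From KD-1 to KD-2 the log2 fold change was 1.81 for Meox2 and 1.71 for Nkx6-2, with counting intervals of 1.41 to 2.25 and 1.30 to 2.16. With 1 library per knockdown, the difference was not tested against a spread between replicates.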

How the results depend on the processing

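No paired analysis was possible because each condition has 1 library. With library totals, DESeq2's size factors, TMM or no low-count filter, the number of genes higher in KD-2 than control lay between 24 and 26, and the share of all genes between 12.2% (no filter) and 21.3% (library totals). Under each setting 0 were lower, with shares of all genes from 0.048% (a fixed dispersion of 0.04) to 8.6%. All 24 genes passed under each of the 4 scalings. With a fold change above 2, the genes higher and lower in KD-1 numbered 3 and 1, those higher in KD-2 15, and those higher and lower in KD-2 than in KD-1 12 and 1. The shares of all genes tested were 2.72%, 1.38%, 5.01%, 7.76% and 2.84%, in this order. With a fixed dispersion of 0.01, 2 and 1 genes were higher and lower in KD-1 (Lhx6, Meis2 and Meox2), 19 were higher in KD-2, and 17 were higher and 1 lower in KD-2 than in KD-1, next to 2.61%, 2.61%, 12.3%, 13.9% and 10.1% of all genes tested. With a fixed dispersion of 0.04, KD-1 had 0 and 0 such genes, KD-2 had 2 higher ones (Nkx3-2 and Pitx1), and 7 were higher and 0 lower in KD-2 than in KD-1 (Irx1, Irx3, Meox2, Msx1, Nkx3-2, Nkx6-2 and Pitx1 were the higher ones). Here the shares of all genes tested were 0.306%, 0.168%, 0.348%, 3.67% and 0.468%. With library totals, which move the median of all tested genes in KD-2 to 0.14, 24 genes were higher and 1 (Pbx4) was lower in KD-2 than in KD-1, next to 19.8% and 5.85% of all genes, and the median over the 41 genes in KD-2 was 0.92. With a minimum mean of 100 reads, the median was -0.02 for KD-1 and 0.51 for KD-2. The cause of these shifts was not tested. Few reads limit the values of genes such as Emx2, Dlx6, Meis3 and Nkx2-1, whose intervals reach close to no difference.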
